A study of Mus musculus with 2 samples.

Results

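The clustered protocadherin genes are a run of related cell adhesion genes on mouse chromosome 18. They were taken as the protein-coding genes of that chromosome whose symbols begin with Pcdha, Pcdhb or Pcdhg followed by a letter or digit, C-type genes included. This gave 57 of 21887 protein-coding genes on the autosomes, X and Y, of which 14 belong to the alpha group, 22 to the beta group and 21 to the gamma group. The data are ChIP-seq peaks for H3R17me2a, the asymmetric dimethylation of an arginine in the tail of histone H3. Carm1, after which the series is titled, is the enzyme that places this mark and works as a coactivator of transcription. Both samples are wild-type mouse heart at 21 days after birth, with no treatment named, and together they form 1 group. No control library, second genotype or second age was analysed here, so no change between conditions is reported.

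The labels limit what the group stands for. They name heart as the tissue and frozen heart tissue as the source of chromatin. A further label names primary cardiac fibroblasts, the series design speaks of neonatal heart, and the sample titles carry the name carm1 beside a wild-type genotype. Of 10 cardiomyocyte markers, 9 had a peak at a gene end in both samples, beside 38.6% of all protein-coding genes, the exception being Ryr2 with a peak in list 2 alone. None of 10 fibroblast markers did (upper limit 30.0%, taken as 3 counts of the total), and Col1a1 had a peak in list 2 alone. Of the other marker lists, 1 of 10 neuronal genes (Slc17a7), 1 of 8 immune genes (Cd68) and 0 of 8 endothelial genes had one. The upper limit for the endothelial genes was 37.5%, and Cldn5 had a peak in list 2 alone. At Cd68 the highest-fold peaks of the lists lay at an end near Mpdu1 and did not overlap. Overlapping peaks of both lists lay inside the spans of 10 of 10 cardiomyocyte and 0 of 10 fibroblast markers. They lay inside 2 of 10 neuronal, 0 of 8 immune and 2 of 8 endothelial markers (Egfl7 and Pecam1). The share over all protein-coding genes was 43.0%. Peaks say where chromatin was pulled down, not which cells of the tissue it came from.

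Each sample has 1 peak list, called list 1 and list 2 after the numbers in the sample titles. The lists held 21496 and 38012 peaks, of which 741 and 1411 lay on chromosome 18. List 1 had no peak below a −log10 p of 5, whereas 51.3% of the list 2 peaks lay below it. The deposited fold and p-value of a peak together fix the number of ChIP reads under its summit. Of 20978 overlapping pairs of peaks, 42.1% had their summits on the same base, and the summit reads of all pairs with recovered reads differed by a median of 1 read. In the same-summit pairs the SD of that difference was 0.264 in units of its counting error, less than sampling noise, so both samples entered as 1 sample. Values from both lists show how peak calling moved a result and carry no replicate error. Total read depth is unknown, and the lists themselves give no reads where no peak was called.

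Clustered protocadherins belong to the cadherin superfamily and bind copies of themselves on neighbouring cells. In the alpha and gamma groups each gene has its own promoter and a long first exon that encodes the extracellular part, and this exon is spliced to constant exons at the far end of the group that all its members share. Beta genes have no such constant exons. In neurons, a partly random choice among these promoters gives single cells different sets of protocadherins, a choice that involves CTCF, cohesin, DNA methylation and distant enhancers, while the C-type genes are known for more uniform use.

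The gene coordinates reflected that layout. All 57 starts, taken as the lower coordinate of each gene's span, stood apart from each other by more than 100 bp. Of the 14 alpha genes, 13 ended within 100 bp of another alpha gene near position 37187657, and Pcdha6 ended at 37188897. All 21 gamma genes ended between 37841863 and 37841873. No beta gene shared an end. The 57 genes therefore had 82 separate ends, and their counts are not 57 independent observations. The table used for coordinates gives no strand for these genes, so a start is called by position and not by direction of transcription.

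Almost none of the clustered protocadherin genes had a peak of both lists at a gene end. An absent peak does not prove that the mark is absent. Whether reads can be placed uniquely in these or other tandem genes was not examined. A gene end here reaches 1000 bp to both sides of the first and of the last base of a gene, and a gene was called marked when a peak of each list overlapped it. Only 1 of the 57 genes was marked, Pcdhgc3, which is 1.75% (95% exact binomial interval 0.0444 to 9.39%), whereas 38.6% of all protein-coding genes were marked. On chromosome 18 as a whole 209 of 511 protein-coding genes were marked, which is 40.9%. No alpha gene of 14 and no beta gene of 22 was marked, so that together 0 of 36 were, with an upper limit of 8.33%. In the gamma group 1 of 21 was marked (4.76%, interval 0.120 to 23.8%). Taken by itself, list 2 had a gene-end peak at 21 of the 57 genes (36.8%, interval 24.4 to 50.7%), beside 46.2% of all protein-coding genes. All of these were gamma genes. Intervals and limits cover counting error only, and they treat neighbouring genes as separate.

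The alpha group had no peak in either list. Its segment runs from 36930285 to 37188897 (mm10), a length of 258.6 kb, and no peak of list 1 or list 2 overlapped it. The starts of the 14 alpha genes lay between 128.3 kb and 341.7 kb from the nearest list 1 peak, with a median of 181.1 kb. The same distances in list 2 were 128.2 kb, 341.6 kb and 181.1 kb. The nearest to a peak was Pcdha1, the first gene of the group, and the peak lay beyond the group on its near side. The shared end, where the constant exons of the alpha genes lie, was still farther from a peak, at 385.6 kb or more. Its C-type genes Pcdhac1 and Pcdhac2, which encode the isoforms known for more uniform use, had starts 288.1 kb and 341.7 kb from the nearest list 1 peak.

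The beta group was likewise without a peak. Its 22 genes are short, between 2340 and 5271 bp, and fill a segment of 256.4 kb from 37264998 to 37521419. No start or end of a beta gene lay within 122.5 kb of a peak in either list. Starts were between 125.6 kb (Pcdhb22) and 379.0 kb (Pcdhb1) from the nearest list 1 peak, with a median of 215.4 kb. Pcdhb1, the first gene of the group, was the member farthest from any peak. The 76.1 kb between the alpha and beta groups held no peak either.

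**Figure D1:**
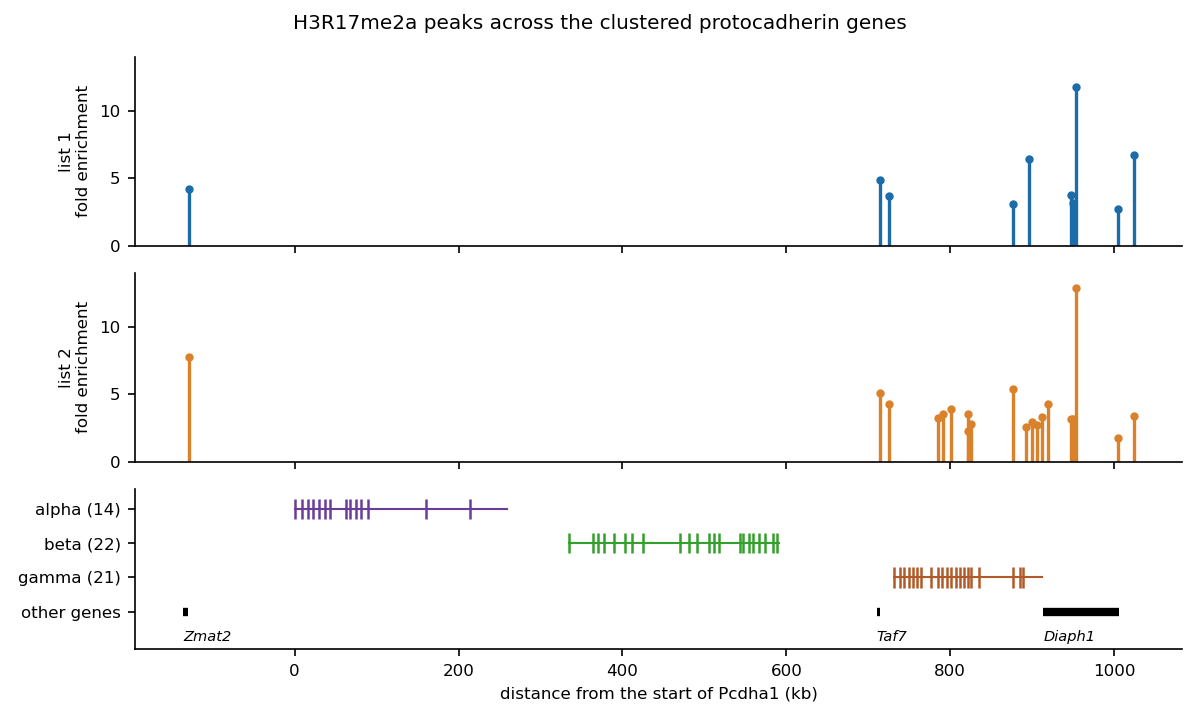
Deposited peaks of list 1 (top) and list 2 (middle) across the cluster, with fold enrichment on the vertical axis and distance from the start of Pcdha1 in kb on the horizontal axis. The lower track shows each member's start as a tick on its group's span, and 3 other genes as bars. No peak stands over the 14 alpha or 22 beta genes, while peaks of both lists stand at Taf7, at Pcdhgc3 and beyond the cluster in Diaph1.

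Together these stretches made up 1 long interval without a peak in either list. It ran from 36802057 to 37643944, a length of 841.9 kb, and held 37 whole protein-coding genes, the 36 alpha and beta genes and the mitochondrial carrier gene Slc25a2. The median interval between neighbouring peaks of either list was 11.6 kb, and 1.34% of 38509 such intervals were at least as long. By the number of genes inside, 13 intervals held at least 37, this one included. The 12 others were named after their values were seen, and their genes were mostly olfactory and vomeronasal receptors, keratin-associated proteins, defensins and related tandem families. On chromosome 18 it was the 14th longest of 1425 intervals.

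**Figure D2:**
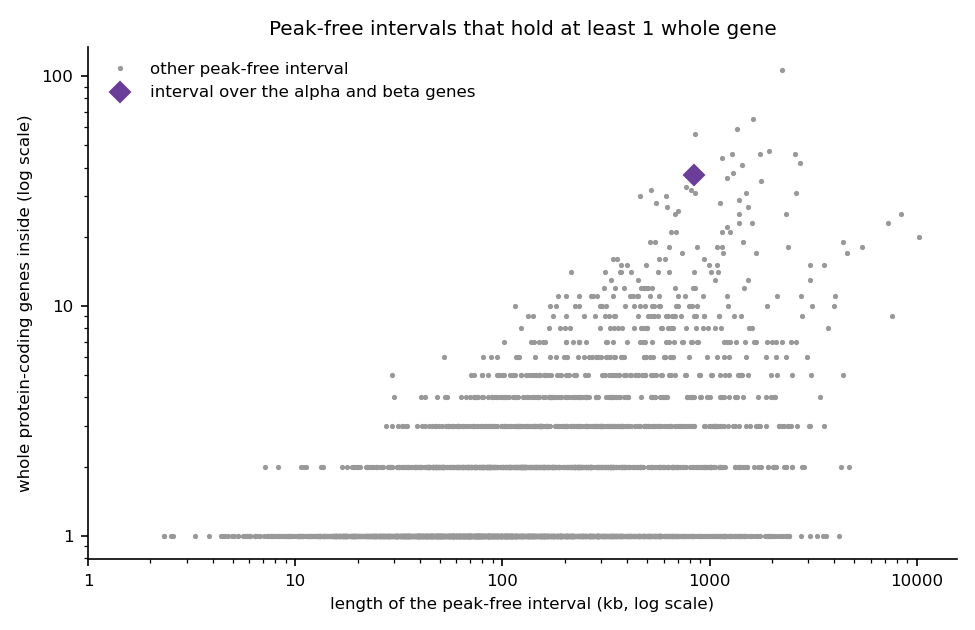
Each point is an interval without a peak in either list that holds at least 1 whole protein-coding gene. The horizontal axis gives its length in kb and the vertical axis the number of whole genes inside, both on log scales. The interval over the alpha and beta genes (diamond, 841.9 kb, 37 genes) is among the 13 with at least as many genes.

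Genes on the edges of this interval did carry the mark. Its near edge was a peak at the vault RNA gene Vaultrc5, which encodes a small non-coding RNA of the vault particle. That peak had a fold enrichment of 4.24 in list 1 (36801716 to 36802001) and 7.74 in list 2 (36801684 to 36802056), with 88 and 86 reads at the summit. The far edge was a peak at the end of Taf7 (37640491 to 37644204), a gene for a subunit of the general transcription factor TFIID that lies between the beta and gamma groups. Its folds were 4.86 and 5.08, from 135 reads in list 1 and 138 in list 2, the highest summit reads of any peak inside the cluster span. Slc25a2, the neighbour of Taf7, had no gene-end peak in either list.

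The gamma group differed between the lists. List 1 had 2 peaks in its 180.1 kb segment (37661775 to 37841873) and list 2 had 10, and 1 was found in both. Per megabase this was 11.1 peaks in list 1 and 55.5 in list 2, beside 16.4 and 26.9 over the merged spans of all protein-coding genes. Peaks covered 0.419% of the segment in list 1 and 1.86% in list 2, beside 0.883% and 1.57% over those spans.

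Pcdhgc3 had the only peak that both lists placed at a protocadherin start. Pcdhgc3 is the first of the 3 C-type genes of the gamma group (37806410 to 37841873). The list 1 peak ran from 37806132 to 37806640, over the start, with a fold of 3.07, a −log10 p of 10.4 and 42 reads at the summit. In list 2 the peak ran from 37806055 to 37806643, with a fold of 5.39, a −log10 p of 12.6 and again 42 reads. The summits, at 37806293 and 37806296, lay just before the start. Within its own list the peak was of low fold in list 1, at or above 14.5% of peaks, and of high fold in list 2, at or above 82.7%. With each list cut to the 50% of its peaks with the highest fold it was lost. Then 0 of 57 genes were marked, beside 12.3% of all protein-coding genes under the same cut. The other C-type gamma genes, Pcdhgc4 and Pcdhgc5, had no peak within 1000 bp of their starts, the nearest being 7.26 kb and 2.79 kb away in list 2 and 8.44 kb and 6.38 kb in list 1.

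Starts of 5 further gamma genes had a peak in list 2 alone. The mark was called at Pcdhga7 and Pcdhga11 of the gamma A subgroup and at Pcdhgb4, Pcdhgb5 and Pcdhgb7 of the gamma B subgroup. At Pcdhgb5 (37730971 to 37841870) the peak ran from 37730915 to 37731127 with a fold of 3.90, a −log10 p of 4.10 and 9 reads at the summit. At Pcdhgb7 (37751619 to 37841870) a peak from 37751682 to 37751922 had a fold of 3.55, a −log10 p of 4.01 and 10 reads, and a weaker one followed it with 5 reads. These 2 leading peaks were the ones with a q under 0.05.

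The remaining 3 starts had weaker peaks. At Pcdhga7 (37714834 to 37841873) the peak lay 300 bp from the start, with a fold of 3.27, a −log10 p of 2.80 and 8 reads. At Pcdhgb4 (37720376 to 37841870) it lay 765 bp away, with a fold of 3.53, a −log10 p of 3.15 and 8 reads. At Pcdhga11 (37755773 to 37841873) it covered the start, with a fold of 2.80, a −log10 p of 2.27 and 6 reads. All 6 of these list 2 peaks had a −log10 p between 2.01 and 4.10, below the lowest value in list 1, and list 1 had no peak at these starts.

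Taken over all gamma starts, list 2 had a peak at 6 of 21, which is 28.6% (exact interval 11.3 to 52.2%), beside 25.8% of all distinct ends of protein-coding genes. List 1 had a peak at 1 of 21, beside 21.2%. Both lists together had 1 of 21, beside 20.9%. The all-gene shares pool both ends of each gene, whereas the gamma counts take starts alone, so the sets are unlike. The share in list 2 was near the pooled share and is no result about the gamma genes. Starts with a peak in list 2 alone were 5 of 21 (23.8%), beside 4.94% of all distinct ends, and were not tested against them. By subgroup, list 2 marked 2 of 12 gamma A starts, 3 of 6 gamma B starts and 1 of 3 gamma C starts. Their exact intervals were 2.09 to 48.4%, 11.8 to 88.2% and 0.840 to 90.6%, and the subgroups were not tested against each other. With a 500 bp window 5 gamma starts had a list 2 peak, and with a 3000 bp window 7 did. Alpha and beta starts lay too far from any peak of either list for these windows to reach one.

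**Figure D3:**
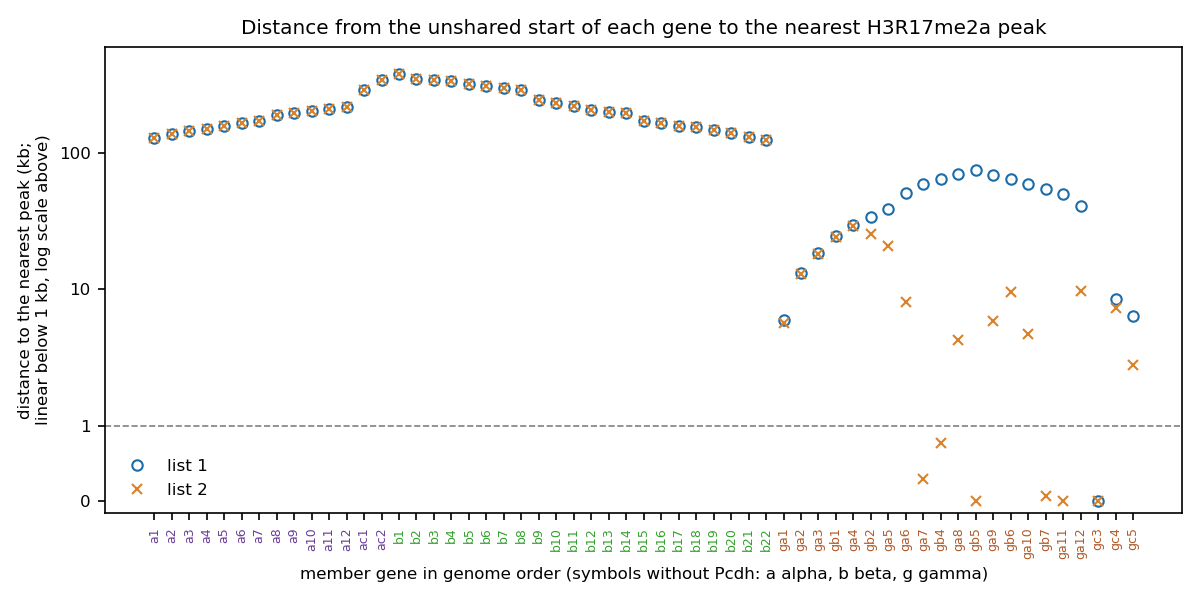
Distance from the start of each of the 57 genes to the nearest peak of list 1 (circles) and list 2 (crosses), in genome order, in kb on an axis that is linear below 1 kb and logarithmic above. The dashed line marks the 1 kb window. Alpha and beta genes lie above 100 kb in both lists, the lists part from Pcdhgb2 onwards, and only Pcdhgc3 has both symbols below the line.

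The shared end of the gamma group showed how 1 peak can mark a whole group. List 2 had a peak from 37842607 to 37842935, between 734 and 744 bp beyond the ends of the 21 gamma genes, with a fold of 3.28, a −log10 p of 3.23 and 9 reads. Because all 21 ends fall within the window, list 2 alone would call 21 of 21 gamma genes marked, beside 46.2% of all protein-coding genes. List 1 alone called 1 of the 57 genes, beside 39.2%. Its nearest peak to the shared gamma end was 15.7 kb away. The list 2 peak also lies 666 bp before the first base of Diaph1, the gene of a formin that drives actin assembly, so it cannot be assigned to the protocadherin end. With a 500 bp window no gamma end had a peak in either list. The shared alpha end, 385.6 kb or more from a peak, could have none at any of the 3 window sizes.

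Gene bodies repeated this dependence on single peaks. A shared peak lay inside the span of 19 of the 57 genes (33.3%), beside 43.0% of all protein-coding genes. All 19 were gamma genes, and for each of them it was the peak at Pcdhgc3, which lies within the spans of every gamma A and gamma B gene because those spans run on to the shared end. Pcdhgc4 and Pcdhgc5 begin beyond it. The 0 of 14 alpha and 0 of 22 beta genes with a shared peak in the body are the same peak-free interval seen from the genes.

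Other peaks of the gamma segment lay between the start of Pcdhgc5, the last gene to begin, and the shared end, inside the spans of all gamma genes. List 1 had a peak from 37825930 to 37826174 with a fold of 6.47 and 12 reads, which no list 2 peak overlapped. List 2 had peaks from 37822335 to 37822893 (fold 2.60, 11 reads), from 37829716 to 37830031 (fold 2.97, 8 reads) and from 37835742 to 37835952 (fold 2.74, 6 reads), which no list 1 peak overlapped. The second of them overlapped Gm29994, a long non-coding RNA gene inside the span. Before the group, a peak found in both lists lay 5.98 kb from the start of Pcdhga1 in list 1 and 5.70 kb in list 2. It had folds of 3.67 and 4.26 and 10 reads in each list, and its −log10 p of 5.08 in list 1 was close to the lowest value of that list.

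**Figure D4:**
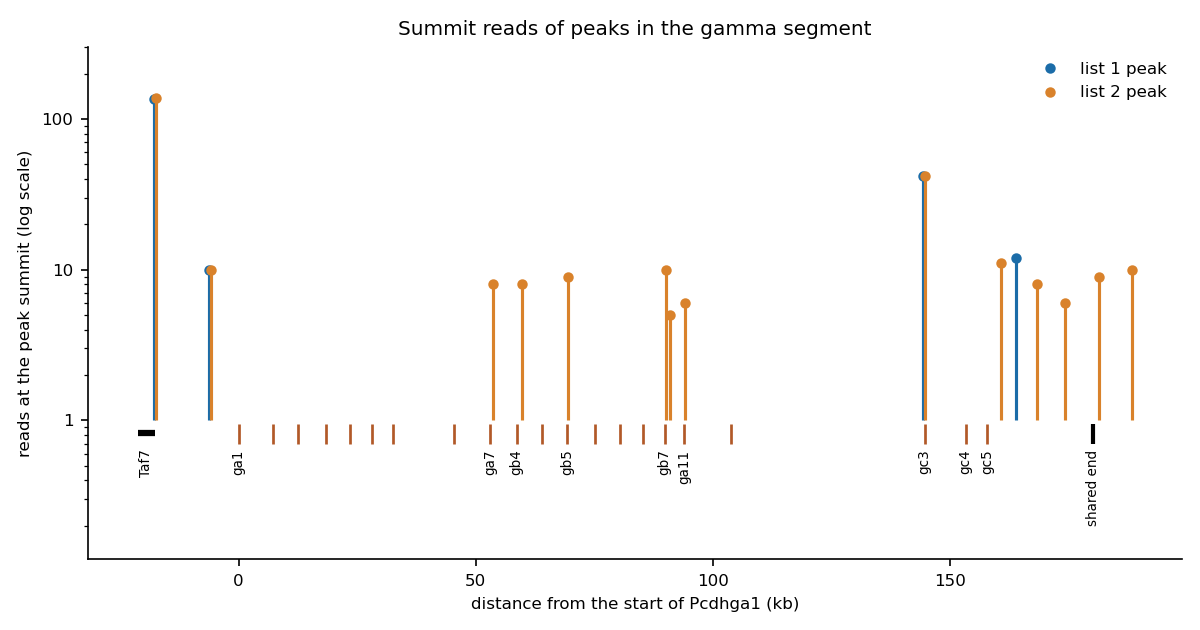
Reads at the summit of each peak from Taf7 to just beyond the shared gamma end, on a log scale, against the distance from the start of Pcdhga1 in kb; list 1 and list 2 symbols are shifted apart by 0.5 kb. Ticks below mark the starts of the 21 gamma genes and the shared end. The peak at Pcdhgc3 has 42 reads in both lists, whereas peaks found in list 2 alone have between 5 and 11.

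The whole cluster span, 911.6 kb from 36930285 to 37841873, held 4 list 1 peaks and 12 list 2 peaks, of which 3 list 1 peaks were shared. These were the peaks at Taf7, before Pcdhga1 and at Pcdhgc3. The density of shared peaks was 3.29 per megabase, beside 8.27 on chromosome 18, 7.72 on all chromosomes and 15.9 over the merged spans of protein-coding genes. Their list 1 midpoints lay between 713.9 and 876.1 kb from the start of the span. The list 1 peaks covered 0.145% of the span and the list 2 peaks 0.470%, beside 0.476% and 0.872% of all chromosomes. Per megabase, list 1 had 4.39 peaks in the span, beside 7.95 on all chromosomes. List 2 had 13.2, beside 14.1, a density near that of all chromosomes.

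Of the 3 nearest protein-coding genes on each side of the cluster, Zmat2 was the only one not marked in both lists. Before the cluster, Hars and Hars2, which encode the cytosolic and mitochondrial histidyl-tRNA synthetases, shared a peak at their adjoining ends with 25 reads in each list and folds of 3.72 and 2.35. Zmat2, a zinc finger gene and the nearest protein-coding gene on that side, had a gene-end peak in list 2 alone (fold 2.39, 10 reads). Beyond the cluster, Diaph1 had a peak at its far end in both lists with 34 and 32 reads. Hdac3, which encodes a histone deacetylase, and its neighbour Rell2 shared a peak of 26 reads in each list with folds of 6.75 and 3.42. Within the body of Diaph1 stood the peak with the highest fold among those plotted across the cluster, at 11.8 in list 1 (37883595 to 37883971, 58 reads) and 12.9 in list 2 (37883582 to 37884101, 61 reads).

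Cadherin genes elsewhere in the genome were marked at a share between that of the cluster and that of all genes, and the differences were not tested. Of 61 cadherin superfamily genes outside the cluster, both lists marked the end of 9 (14.8%, exact interval 6.98 to 26.2%), beside 38.6% of all protein-coding genes. Among the 12 non-clustered protocadherins, which stand alone with promoters of their own, 3 were marked. Pcdh7 had the strongest with folds of 8.34 in list 1 and 5.01 in list 2, from 49 and 47 reads, followed by Pcdh1 (6.40 and 4.47, from 17 and 16 reads) and Pcdh8 (3.20 and 3.84, from 15 and 17 reads). Pcdh18 and Pcdh19 had a gene-end peak in list 2 alone.

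Cadherins of the heart's cell junctions were among the others, named after their values were seen. Cdh2, the N-cadherin of the cardiomyocyte's adherens junctions, had folds of 5.002 and 3.69 from 69 and 70 reads. Dsg2 and Dsc2, the desmosomal cadherins of cardiac muscle, had folds of 5.002 and 3.81 and of 5.002 and 3.26, with 24 and 23 reads at Dsg2 and 29 and 30 at Dsc2. The large cadherin Dchs1 had folds of 3.601 and 6.23 at an end near Tpp1, with 89 reads in each list. Cdh5, the cadherin of endothelial junctions, had no gene-end peak in either list. The 42 reads at Pcdhgc3 lay above those at Dsg2 and Dsc2 and below those at Cdh2 and Dchs1. Its list 1 fold of 3.07 was below that of all 4 genes, and its list 2 fold of 5.39 was above those of Cdh2, Dsg2 and Dsc2 and below that of Dchs1. The remaining marked cadherin genes, also named after their values were seen, were Celsr3 and Cdh24. Celsr3 had folds of 5.56 and 3.59 from 66 and 68 reads at an end near Slc26a6. The list 2 peak there lay wholly beyond the last base of Celsr3. Cdh24 had folds of 3.40 and 3.33 from 16 and 17 reads at an end near Acin1.

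Of 22 genes for factors known to act in protocadherin promoter choice, 12 were marked (54.5%, exact interval 32.2 to 75.6%). The share over all protein-coding genes was 38.6%, within that interval. The difference was not tested and is not read as a result about these factors. Setdb1, a histone methyltransferase of silent chromatin, had folds of 7.63 and 7.66 from 26 reads in each list. Mau2, a subunit of the cohesin loader, had folds of 10.003 and 5.32 at an end near Sugp1, and the zinc finger factor Zfp143 4.43 and 5.61. The next genes were named after their values were seen. Ctcf, the insulator protein that binds many of these promoters, had folds of 6.30 and 3.80 with 106 and 109 reads. Smc1a and Smc3, core subunits of cohesin, had folds of 5.86 and 4.16 and of 2.72 and 4.22. The Smc1a peaks lay at an end near Ribc1. Smchd1, a silencer of the cluster in mouse, had folds of 4.43 and 1.66. Dnmt3b and Wiz had a gene-end peak in list 2 alone and Pds5a in list 1 alone. Dnmt1, Dnmt3a, Nipbl, Rad21, Stag1, Tet1 and Wapl had none in either list, but each held a shared peak inside its span.

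Of 16 listed genes of the signalling that protocadherins feed into, 14 were marked (87.5%, exact interval 61.7 to 98.4%), beside 38.6% of all protein-coding genes. That difference was not tested either. The exceptions were Ret and Axin1. Ptk2b, a focal adhesion kinase that binds protocadherin tails, had folds of 5.47 and 4.26 from 10 reads in each list. Lrp6, a Wnt coreceptor, had folds of 6.68 and 3.80 from 146 and 152 reads, and Cyfip1, a subunit of the actin-regulating WAVE complex, 3.40 and 4.22 from 16 and 15. Ptk2, the kinase related to Ptk2b, and Adam10, the protease that sheds the outer part of protocadherins, were named after their values were seen. They had folds of 2.80 and 2.57 from 69 reads in each list, and of 2.57 and 2.80 from 99 and 98. The share depended on the strength of peaks. At a −log10 p of 5 or more in each list 9 of 16 were marked (56.3%), beside 32.97% of all protein-coding genes. In the 50% of peaks with the highest fold 2 of 16 were marked (12.5%), beside 12.3%, a share near that of all genes.

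Other tandem families gave shares both below and above the 38.6% of all protein-coding genes. Ugt1a genes, which like the alpha and gamma groups join separate first exons to common ones, were marked at 0 of 9, with an upper limit of 33.3%. No olfactory receptor of 1110 was marked, with an upper limit of 0.270%, and vomeronasal receptors were marked at 2 of 353 (0.567%), Vmn1r4 and Vmn2r3. Keratins were marked at 2 of 53 (3.77%), Krt10 and Krt80, and Hox genes at 2 of 39 (5.13%), Hoxc5 and Hoxd3. Zfp genes were marked at 199 of 397 (50.1%) and genes of histone cluster 1 at 34 of 54 (63.0%). Neighbouring histone genes can be marked by the same peak, as H2ac8 and H2bc8 were, so the 34 are not separate observations. The exact interval of the 36 alpha and beta genes was 0 to 9.74%. Such intervals treat neighbouring genes as separate, which genes of tandem families are not. The families were therefore not tested against each other.

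**Figure D5:**
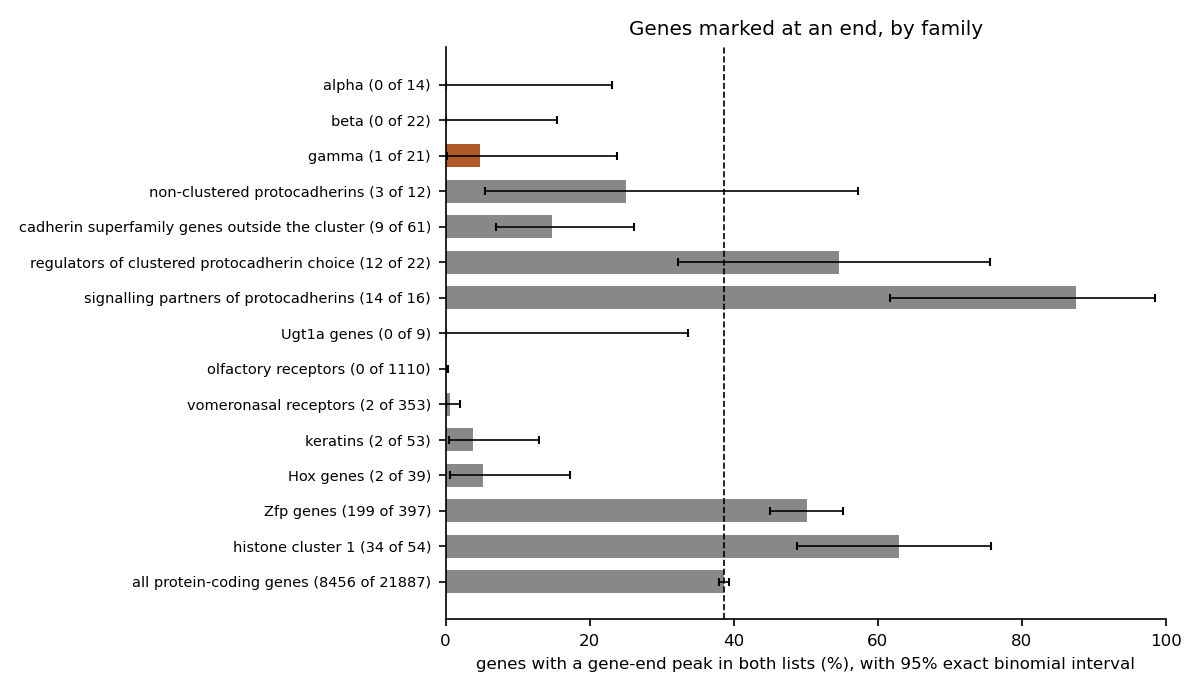
Share of genes with a gene-end peak in both lists, by family, with the count of marked genes and the family's size in brackets. Bars give the percentage, whiskers the 95% exact binomial interval, and the dashed line the 38.6% of all protein-coding genes. Alpha and beta genes are at 0 and the gamma group at 4.76%, while signalling partners reach 87.5%.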

How the data were processed

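H3R17me2a ChIP-seq was analysed in 2 samples of 1 group, which the labels do not tie to separate animals. Per the submitters' processing notes, FastQC, Bowtie2 and mm10 were used. The peak caller, the control and any pooling of reads were not given in the sources used here. The deposited narrow peak lists hold a score (10 times the −log10 p), a fold (a linear ratio over background) and −log10 p and q values, all the authors' own and used only within a list.

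Genes came from RefSeq's table for GRCm38.p6, which shares mm10 coordinates. Coordinates are 1-based, and overlap means at least 1 bp. A shared peak is a list 1 peak that overlaps a list 2 peak. Summit reads are the whole number n for which fold = (f × n + 1) / (background + 1) and the Poisson tail gave p within 0.001 on the −log10 scale, with f scanned per list. This held for 99.9% of list 1 peaks (f = 1.0) and 97.8% of list 2 peaks (f = 0.6183), was tested on simulated data and was added after seeing the data.

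With 1 group no test was made. Shares carry 95% exact binomial intervals, and a count of 0 is given an upper limit of 3 counts. The members, lists and alternatives were chosen with earlier results of these data known. Named were members with a gene-end peak, genes inside the span, the 3 nearest on each side, and in each list the few marked or unmarked genes or the 3 marked ones of lowest summed fold rank. Histone genes were matched by older symbols. Python 3.11.15 with scipy 1.17.1 was used. Some genes that this rule selects are left out of the text, and others are said to be named after their values were seen.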

Additional observations from a re-analysis of the deposited data

How the results depend on the processing

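The 0 of 14 alpha and 0 of 22 beta genes marked in both lists stayed at 0 under all 10 alternatives listed at the outset. They also did so under both chosen after seeing the data (a q of at most 0.05, and the pseudogene and read-through genes added). No setting could have changed these counts. None added a peak, the widest window was 3000 bp, and no alpha or beta gene started or ended within 122.5 kb of a peak. Leaving out 1 sample's list gave 1 to 21 marked members, all of them gamma genes. Members with a peak at the unshared end were 1 to 6. The span held 4 to 12 peaks covering 0.145 to 0.470% of it. Marked cadherin genes outside the cluster were 9 to 14 of 61. All protein-coding genes were marked at 39.2 to 46.2%. The higher values come from list 2 alone. In the upper 50% of peaks by fold, 0 members, 0 gamma genes, 0 unshared ends and 0 shared peaks (0% of the span, beside 0.118%) were left. Under that cut 2697 of 21887 protein-coding genes were marked (12.3%). Beside them stood 5 of 61 cadherin genes (8.20%), 4 of 22 regulators (18.2%) and 2 of 16 signalling partners (12.5%). A 3000 bp window gave 15 of 61 cadherin genes (24.6%), beside 42.9% of all protein-coding genes. A −log10 p of 5 gave 9 of 16 signalling partners (56.3%), beside 32.97%. All other counts were within 1.5 times of those reported. The 9 gamma peaks of list 2 alone rest on 5 to 11 summit reads, and 2 of them have a q of at most 0.05. No paired analysis was possible because the samples form 1 group.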
